A study of Capra hircus with 3 samples.

Results

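The luminal layer of the mammary epithelium, which makes milk, was followed through 10 genes that mark its cells: the keratins KRT7, KRT8, KRT18 and KRT19, the adhesion proteins EPCAM and CDH1, the receptor KIT, the transcription factors EHF and ELF3, and the surface protein CD24. They were picked by symbol, and a deposited value was taken where the NCBI gene ID of the symbol was listed, with loci of one ID summed. A value was found for 9 of the 10, each at 1 locus, among 13023 protein-coding genes and 50041 loci in all. CD24 had no entry under its gene ID and was not analysed here.

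Mammary gland tissue was taken surgically from 5 healthy Laoshan dairy goats, 4 years old, on days 10, 90 and 210 after kidding. RNA of all 5 animals was mixed in equal parts, giving 1 library per stage. The libraries are called E (early lactation, day 10), P (peak lactation, day 90) and L (late lactation, day 210), and nothing but the stage sets them apart in the labels. The values are FPKM, fragment numbers scaled to transcript length and to the mapped reads, so levels of different genes can be set side by side. With 1 library per stage no spread between replicates, test or interval can be given, and each ratio below compares 2 pools of RNA.

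The names of the P and L columns are in doubt. They were compared over 148 annotated lncRNA genes from the study's supplementary list of lncRNAs that differ between P and L. The deposited column labelled peak lactation correlated more with the L library of that list (log2 Pearson 0.66) than with its P library (0.36). The column labelled late correlated more with P (0.70) than with L (0.25), as did that labelled early (0.66 and 0.33). So E, P and L stand here for the column labels only. If the labels are crossed, P and L change places in every result below. The tissue itself was clear from its milk transcripts, since CSN1S1, which encodes alpha-s1-casein, had 25057, 12017 and 39445 FPKM in E, P and L. In tissue RNA, fewer cells of a type and less RNA per cell cannot be told apart.

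Keratins are filament proteins that work in pairs of a type II chain (here KRT7 and KRT8) and a type I chain (KRT18 and KRT19), and this simple-epithelial set lines ducts and alveoli. EPCAM and CDH1 (E-cadherin) hold neighbouring epithelial cells together. KIT is the receptor for stem cell factor and marks luminal progenitor cells, while EHF and ELF3 belong to the epithelium-specific branch of the ETS family of transcription factors, as does ELF5, the regulator of alveolar differentiation.

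KRT7, KRT18 and KRT8 lay on the same scaffold, NW_005100666.1, of an assembly that the deposited table does not name. KRT7 (gene ID 102184596) was listed from 17161437 to 17174895, KRT8 (102182762) from 16794115 to 16847372 and KRT18 (102181566) from 16753593 to 16757088. The gap between KRT18 and KRT8 was 37026 nt, and no other entry of the table lay closer to either gene. KRT19 (106501743) was listed on NW_005100886.1 from 17432306 to 17433865, at 1560 nt the shortest locus of the 9. No locus of the 9 genes overlapped another entry. The locus of KRT8 spanned 53258 nt against 3496 nt for KRT18, and the part of this span in its FPKM was not tested.

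KRT19 was the most abundant of the 9 genes in every library, and KIT the least. KRT19, the shortest keratin, which lacks the tail domain of the others, had 439 FPKM in E, 413 in P and 364 in L, the 75th, 57th and 86th highest level among the 12958, 12999 and 12823 protein-coding genes above 0. Its highest level was 1.21 times its lowest, the smallest range of the keratins. KRT8 had 126 FPKM in E, 196 in P and 154 in L. KRT7 had 76.6, 157 and 48.6 FPKM, and its order over the libraries, P above E above L, was shared with KRT18. KRT18, the main partner of KRT8, had 21.0, 32.0 and 19.5 FPKM, and stood below KRT8 in all 3 libraries.

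EHF had 181 FPKM in E, 93.6 in P and 173 in L, which placed it second to KRT19 in E and L and behind KRT19, KRT8 and KRT7 in P. EPCAM had 77.8 FPKM in E, 60.0 in P and 76.4 in L, and CDH1 had 34.5, 39.8 and 36.7 FPKM. These adhesion genes were the steadiest with KRT19, with a highest to lowest ratio of 1.30 for EPCAM and 1.15 for CDH1. ELF3 had 8.49 FPKM in E, 19.2 in P and 5.79 in L. KIT had 3.96, 9.82 and 1.12 FPKM, so its rank among protein-coding genes went from 8640th in E to 5006th in P and 11290th in L. Because 1 library stands for each stage, it cannot be said which neighbours in these orders differ beyond their spread.

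**Figure D1:**
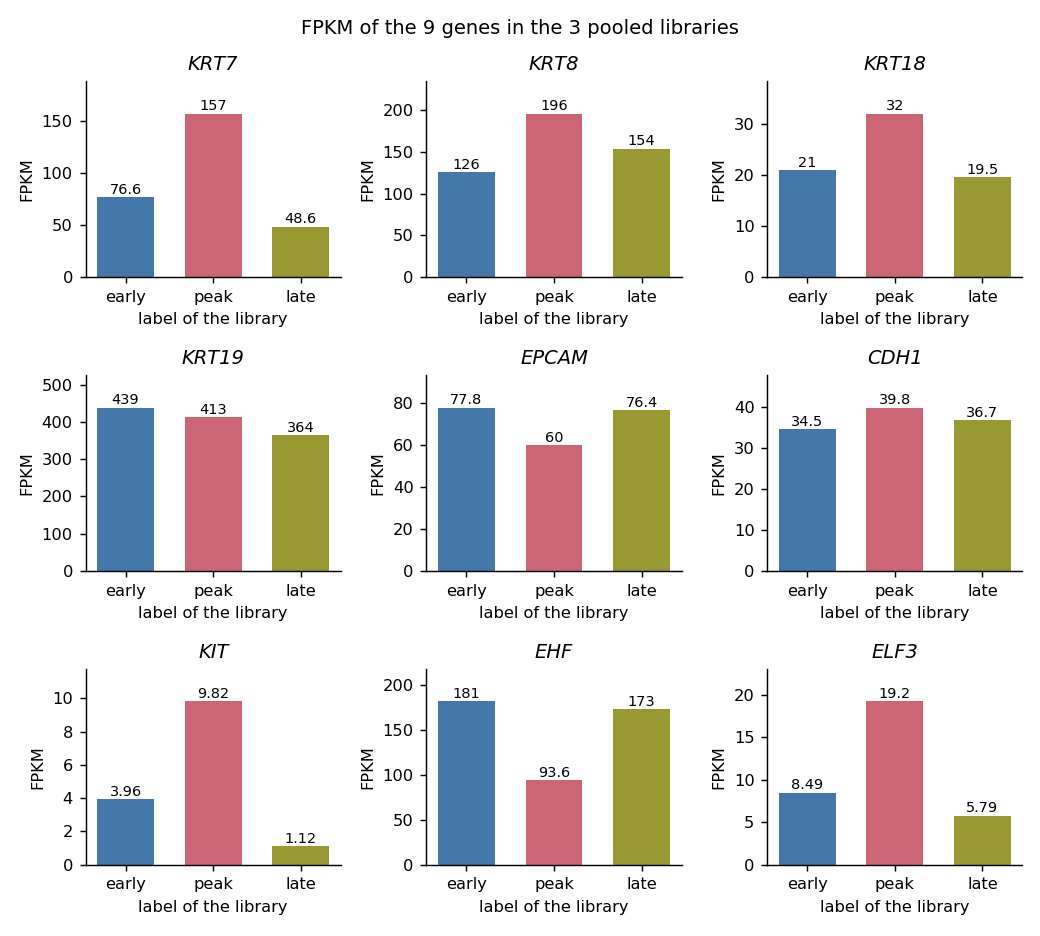
FPKM (vertical axes, each from 0) of the 9 genes in the libraries labelled early (E), peak (P) and late (L), with 1 bar per pooled library and no error bar because there are no replicates. KRT7, KRT18, KIT and ELF3 are highest in P and lowest in L, and EHF and EPCAM are lowest in P.

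Between E and P, the question was which luminal genes differ as lactation goes on from its start. Of the 9 genes, 3 stood at least 2-fold higher in P, KIT by 2.48-fold (log2 ratio 1.31), ELF3 by 2.26-fold (1.18) and KRT7 by 2.05-fold (1.04). None was at least 2-fold lower, and EHF came nearest, 1.94-fold lower in P (log2 ratio -0.95). At this fold, 10.9% of 13020 protein-coding genes were higher in P and 6.80% lower. KRT8 and KRT18 were 1.56-fold and 1.53-fold higher in P, CDH1 1.15-fold higher, KRT19 1.06-fold lower and EPCAM 1.30-fold lower. The median log2 ratio of the 9 genes was 0.61, with 6 of them positive, beside 0.01 over all protein-coding genes. Divided by CDH1 of the same library, KRT7 (log2 ratio 0.83) and ELF3 (0.97) were no longer past 2-fold, KIT (1.10) still was, and EHF was at least 2-fold lower in P (-1.16). The most abundant locus was also left out and the libraries rescaled to a common sum, which raises every ratio of P over E alike. KRT8 and KRT18 were then past 2-fold as well, and the levels of KRT19 and EPCAM turned from lower to higher in P. EHF stayed lower in P, but at a log2 ratio of only -0.44.

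Between E and L, the luminal genes stood close together except for KIT. KIT was 3.55-fold lower in L (log2 ratio -1.83), the only 1 of the 9 genes past 2-fold. With 1 added to each FPKM, its log2 ratio was -1.23. Of 13004 protein-coding genes, 6.74% were at least 2-fold lower in L and 1.97% higher. KRT7 was 1.58-fold and ELF3 1.47-fold lower in L. The other 6 genes differed by less than 1.5-fold, from KRT19 at a log2 ratio of -0.27 to KRT8 at 0.29, with EPCAM at -0.03, EHF at -0.07, KRT18 at -0.10 and CDH1 at 0.09. The median was -0.10, beside -0.03 for all protein-coding genes. Under the rescaling, EPCAM, EHF and KRT18 turned from slightly lower to slightly higher in L.

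Between P and L, the genes that were at least 2-fold higher in P than in E were also the ones past 2-fold. But these comparisons share the P library and are not independent. KIT was 8.79-fold lower in L than in P (log2 ratio -3.14), ELF3 3.32-fold lower (-1.73) and KRT7 3.23-fold lower (-1.69). The KIT ratio rests on 1.12 FPKM in L, and with 1 added to each FPKM its log2 ratio was -2.35. KRT18 was 1.64-fold and KRT8 1.27-fold lower, while EHF was 1.84-fold and EPCAM 1.27-fold higher in L. No member was at least 2-fold higher. The background was wide in this comparison, with 17.4% of 13015 protein-coding genes at least 2-fold lower in L and 8.56% higher. The median log2 ratio of the 9 genes was -0.35 beside -0.03 for all protein-coding genes, and 7 of the 9 were below 0. Under the rescaling KRT18 was past 2-fold too, and EPCAM turned from higher to lower in L. EHF stayed higher in L, but at a log2 ratio of only 0.49.

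**Figure D2:**
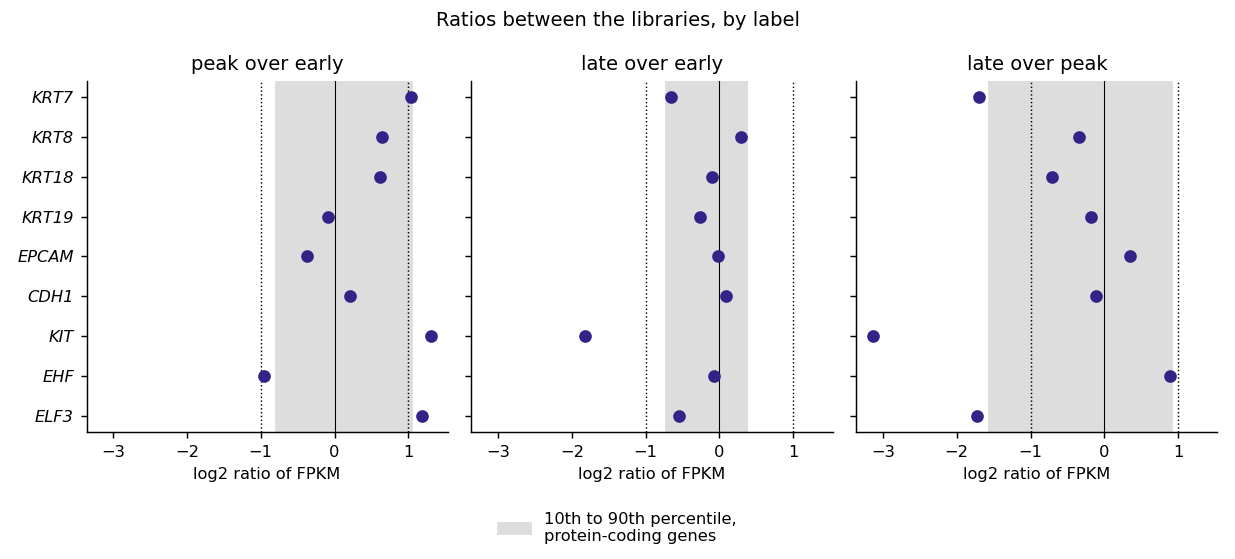
Log2 ratios of FPKM (horizontal axes) of the 9 genes for P over E, L over E and L over P, with 1 point per gene. The grey band holds the central range of protein-coding genes, from the 10th to the 90th percentile, and dotted lines mark 2-fold. KIT lies outside the band in all 3 panels. For P over E, ELF3 lies right of the band and EHF left of it. For L over P, KRT7 and ELF3 lie left of it.

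Ratios of 2 genes within a library, and shares of a sum of genes, do not depend on how the libraries were scaled. The sum of the keratins does depend on it, and was 662 FPKM in E, 798 in P and 586 in L as deposited. KRT19 made up 66.3% of this sum in E, 51.8% in P and 62.1% in L. KRT7 made up 11.6%, 19.7% and 8.29%, highest in P. KRT8 made up 19.0%, 24.6% and 26.3%, above its share in E in both other libraries. KRT18 kept the smallest share, 3.17%, 4.02% and 3.34%.

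**Figure D3:**
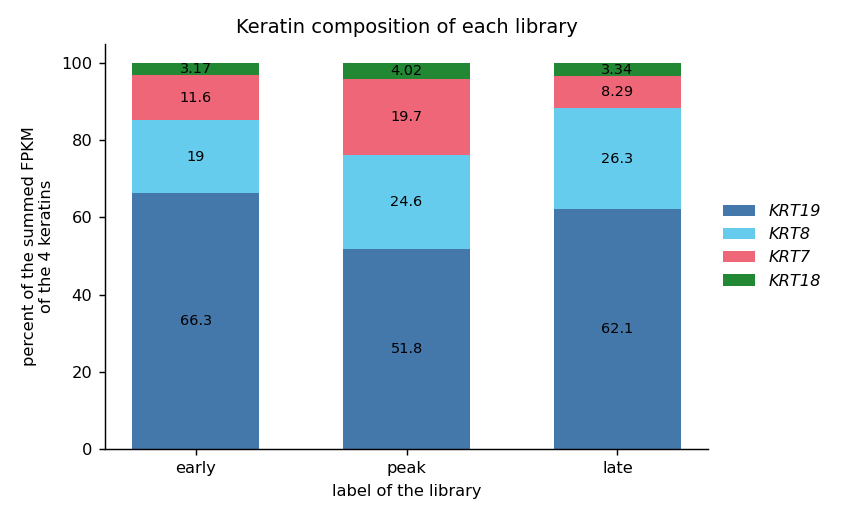
Share of each keratin in the summed FPKM of the 4 keratins (vertical axis, percent) in the libraries labelled early (E), peak (P) and late (L), with 1 stacked bar per library. KRT19 holds the largest part of each bar, and the segment of KRT7 is widest in P at 19.7%.

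KRT8 and KRT18, which polymerise with each other, kept nearly the same ratio in E and P, 6.0 and 6.11, and stood at 7.88 in L. KRT7 to KRT8 was less steady, at 0.608 in E, 0.802 in P and 0.315 in L. Summed by type, type II over type I chains gave 0.440, 0.793 and 0.529, with type I in excess in every library through KRT19. An FPKM ratio counts RNA and not protein, so it does not give the make-up of the filaments. For the adhesion genes, EPCAM to CDH1 was 2.25 in E, 1.51 in P and 2.08 in L.

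EHF and ELF3 moved apart, as EHF exceeded ELF3 by a factor of 21.4 in E, 4.87 in P and 29.8 in L, a 6.12-fold range between the libraries, with EHF lowest and ELF3 highest in P. KIT relative to its ligand KITLG, which had 6.58, 6.12 and 8.83 FPKM, stood at 0.602 in E, 1.60 in P and 0.126 in L, and none of the 6 genes of KIT signalling listed, led by PTPN6 with 25.7, 23.8 and 25.1 FPKM, was past 2-fold. The ratio ranged 12.7-fold, with KITLG differing by less than 2-fold and KIT by 8.79-fold between its lowest and highest level. The low end of these KIT ranges rests on 1.12 FPKM in L. Set against the epithelial gene CDH1, KIT was still 8.11 times higher in P than in L, ELF3 3.06 times and KRT7 2.98 times.

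**Figure D4:**
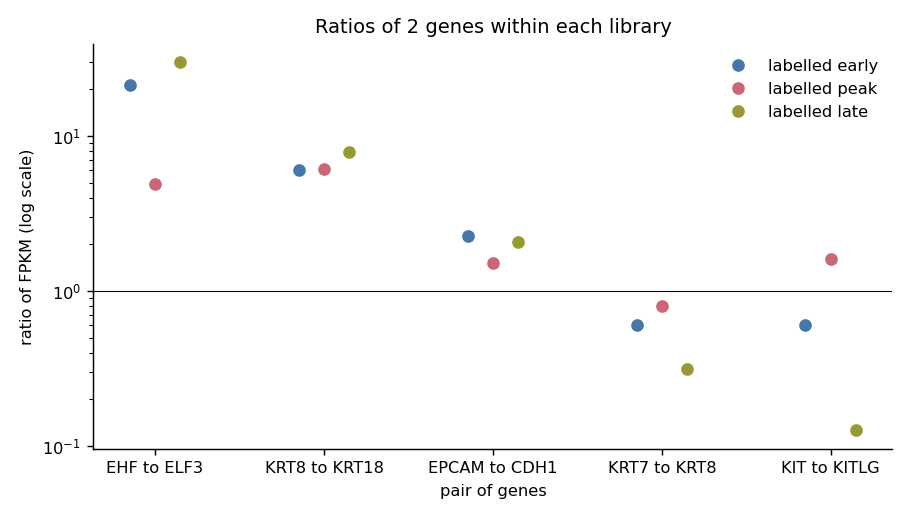
Ratio of FPKM of 2 genes in the same library (vertical axis, log scale), with 1 point for each of the libraries labelled early (E), peak (P) and late (L). KRT8 to KRT18 and EPCAM to CDH1 stay close together, while EHF to ELF3 is lowest in P at 4.87 and KIT to KITLG is highest there at 1.60.

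Transcription and splicing factors of epithelial cells had a value for 17 of 18 genes. Between E and P, 2 were at least 2-fold higher in P and 1 lower, with a median log2 ratio of -0.11. The lower one was ELF5, the most abundant of them and a close relative of EHF and ELF3, with 879 FPKM in E, 244 in P and 875 in L. ELF5 thus had the order of EHF, with a log2 ratio of -1.85 against -0.95 for EHF. KIT, which was listed with ELF5 as a luminal progenitor marker, went the opposite way (1.31). Those higher were TFAP2A, of the AP-2 family, with 2.45, 6.76 and 4.01 FPKM, and SPDEF, another ETS factor of luminal cells with 0.966, 2.50 and 0.489 FPKM, which is named after its values were seen. Between E and L, FOXA1, a partner of the oestrogen receptor, was the 1 gene past 2-fold, with 1.57, 2.79 and 0.523 FPKM, and is named after its values were seen. Between P and L, ELF5 and ESRP1, a splicing regulator of epithelia with 20.9, 12.8 and 28.3 FPKM, were higher in L, and SPDEF and FOXA1 lower.

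Surface proteins and membrane proteases of epithelia had a value for all 13 genes counted, and 1 was at least 2-fold higher and 3 lower in P than in E, with a median log2 ratio of -0.39. The higher one was PROM1 (prominin-1), a protein of membrane protrusions, with 2.95 FPKM in E, 13.0 in P and 1.07 in L, the order of KIT, ELF3 and KRT7. RAB25, a regulator of apical recycling, had 44.3, 16.0 and 38.4 FPKM. The protease PRSS8 had 46.3, 22.0 and 48.0 FPKM, and AP1M2, an adaptor for basolateral sorting, had 23.1, 11.1 and 22.1. SPINT2, an inhibitor of such proteases and the most abundant gene of the list, had 226, 163 and 245 FPKM. Between E and L, PROM1 was the 1 gene past 2-fold, lower in L. Between P and L, it was lower in L, and RAB25, PRSS8, AP1M2 and MUC1, the mucin of the milk fat globule with 13.1, 6.66 and 19.7 FPKM, were higher.

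Junction genes around CDH1 and the keratin anchors were counted as well. None of the 8 adherens junction partners was past 2-fold in any comparison, and the most abundant, CTNNB1 (beta-catenin), had 95.5, 112 and 87.2 FPKM. Of 4 desmosome genes with a value, PKP2 (plakophilin-2) was at least 2-fold higher in L than in P, with 17.4, 8.98 and 21.6 FPKM, and PERP, the most abundant, had 33.7, 51.2 and 33.5. Among 4 cytolinkers, which tie keratin filaments to junctions, PLEC had the highest level, with 71.4, 101 and 101 FPKM. EVPL was at least 2-fold lower in L than in both others, with 1.44, 2.34 and 0.515 FPKM, and is named after its values were seen.

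All 6 transcriptional repressors of CDH1 had a value, and 3 of them were at least 2-fold higher in P than in E, with a median log2 ratio of 1.18. TWIST1 had 2.91 FPKM in E, 7.49 in P and 3.69 in L, and TWIST2 had 1.12, 3.04 and 1.12 FPKM. SNAI1, the remaining one, had 0.130 FPKM in E, 1.18 in P and 0.287 in L, and is named after its values were seen. ZEB2, the most abundant, had 5.39, 10.7 and 4.10 FPKM. ZEB1 went the other way between E and P, with 0.739 and 0.388 FPKM (log2 ratio -0.93). Counted as lower in L than in P were 5 of the 6, ZEB1 among them because it was listed at 0 in L. Between E and L, SNAI1 was at least 2-fold higher in L, and ZEB1 counted as lower. Their target CDH1 had its highest level in P. These repressors are also active in fibroblasts and blood cells, and the cells they came from were not tested.

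Other cells of the gland share some of these genes, so their markers are given beside the results. KRT5 and KRT14 are keratins of basal and myoepithelial cells. KRT5 had 73.2, 96.7 and 56.6 FPKM in E, P and L, the order of KRT7 and KRT18, with no difference of 2-fold, and KRT14 had 10.0, 8.75 and 8.34. Of the 8 basal and myoepithelial markers with a value, OXTR alone, the oxytocin receptor, was past 2-fold, with 3.83, 1.14 and 5.43 FPKM, and their sum was 392, 404 and 391 FPKM. TAGLN, an actin-binding protein and the highest of them, had 165, 173 and 176 FPKM.

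KIT is also made by mast cells. CPA3, MS4A2, HDC and TPSB2, the mast cell markers listed, had no deposited value, so the part of mast cells in the KIT level was not tested. Most lymphocyte markers had the order of KIT, ELF3 and KRT7, with CD3E the exception. The 4 B cell genes summed to 3.07 FPKM in E, 17.6 in P and 1.52 in L, all 4 at least 2-fold higher in P than in E, and CD79B, the highest, had 1.08, 7.22 and 0.308 FPKM. Of 6 general immune markers, 3 were at least 2-fold higher in P than in E, PTPRC with 17.6, 39.9 and 8.08 FPKM, CD3D with 2.68, 10.4 and 1.23 and CD8A with 2.59, 5.22 and 0.952, and their sum was 38.8, 71.8 and 25.1 FPKM. CD3E, a T cell gene, was listed at 0 in E and P and had 1.43 FPKM in L. Whether its 0 values are absence or missing values was not tested. Between E and L, PTPRC, CD3D and CD8A were at least 2-fold lower in L. Their part in the luminal ratios was not tested.

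The milk secretion genes listed ran the other way. All 8 (LALBA, CSN1S1, CSN3, LPO, XDH, BTN1A1, PLIN2 and FASN) were at least 2-fold lower in P than in E, with a median log2 ratio of -1.53, and 7 of them were at least 2-fold higher in L than in P. The most abundant locus, which is not among the 8, held 30.0%, 46.0% and 29.9% of the FPKM sum of E, P and L. What it encodes was not examined here. Counts in this and the other gene lists used FPKM as deposited, without the rescaling. For protein-coding genes at or above 1 FPKM, the rescaling moved the median log2 ratio of P over E from -0.03 to 0.50. CSN1S1 (-1.06), FASN (-1.21) and BTN1A1 (-1.24) lay nearest to 2-fold, so the count of 8 depends on the scaling. LALBA (alpha-lactalbumin), the highest, had 70053 FPKM in E and 15214 in P and was listed at 0 in L. The same library had 27391 FPKM of CSN3, and whether the 0 of LALBA is absence or a missing value was not tested. EHF and ELF5 had their lowest level in P, as did the 7 genes other than LALBA. Of 8 fibroblast genes, summing to 963, 988 and 761 FPKM, COL1A2 and COL3A1 were at least 2-fold lower and PDGFRA higher in P than in E, and PDGFRA, DCN and VIM, the most abundant, were lower in L than in P. The 5 endothelial genes, led by PECAM1 with 47.4, 46.9 and 38.1 FPKM, were all within 2-fold and summed to 123, 111 and 135 FPKM. Of 4 adipocyte genes, summing to 701, 275 and 1152 FPKM, LPL, which lactating epithelium also makes, had 683, 269 and 1145 FPKM and makes up nearly all of the sum, and ADIPOQ had 15.1, 4.10 and 5.69. Between E and L, 3 of the 4, ADIPOQ, PLIN1 and CIDEC, were at least 2-fold lower in L, with a median log2 ratio of -1.43, while LPL was higher (0.75). PLIN1 and CIDEC are named after their values were seen.

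**Figure D5:**
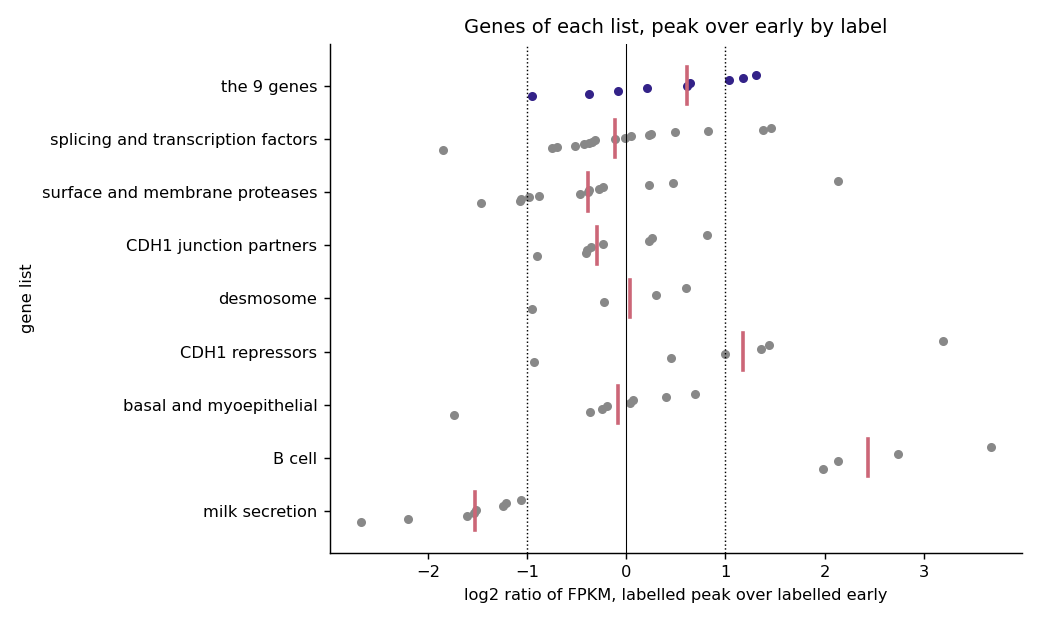
Log2 ratio of FPKM of P over E (horizontal axis) for the 9 luminal genes and for the genes of 8 lists, with 1 point per gene, a red bar at each median and dotted lines at 2-fold. The B cell genes lie right of 2-fold and the milk secretion genes left of it, and the 9 luminal genes spread from -0.95 to 1.31.

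By their log2 ratios of P over E and L over E, the genes most like the median of the 9 were RNF13, ID2, ANTXR1, CYLD and ETS1 among 4671 named protein-coding genes with a mean of at least 10 FPKM. Their distances on the log2 scale were from 0.01 to 0.05, over 3 libraries that share E as denominator. RNF13, the nearest, had 12.6 FPKM in E, 19.5 in P and 11.8 in L. Among 99 genes of the lists above 0 in every library, TP63, PERP, KLF4, SNAI2 and CD9 were nearest, at 0.09 to 0.21. KRT18 was itself the median gene in both ratios. Closest to the median of KRT7, KIT and ELF3, a target chosen after the values were seen, were APOE, DDAH2, PARP14, S100A2 and ARHGAP45, at 0.07 to 0.14. Of these, S100A2 had 70.9, 174 and 46.0 FPKM. Closest to EHF, also chosen afterwards, were ERGIC1, KCTD2, SLC25A3, LRIG1 and GK5, at 0.003 to 0.03.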

How the data were processed

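The authors pooled the RNA of 5 goats per stage, trimmed the reads, mapped them with TopHat2 2.0.9, assembled transcripts with Cufflinks 2.1.1 and Cuffmerge and deposited FPKM from Cuffdiff for 50041 loci. Of the deposited values with 7 significant digits, 95.7% to 99.3% end in 5, as the mean of a pair of shorter values would; whether values were averaged is not given in the sources used here. The depth behind single loci is unknown, since the table holds no read numbers.

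Columns were assigned by the labels. Gene IDs were matched to the ARS1.2 gene table for symbols only, since scaffolds differ from that assembly. Ratios used FPKM as deposited, with 0 set to 0.001 in counts of lists, and 2-fold was the call. No test was run, as there is 1 library per stage. Members and lists were chosen with earlier results of these data known. Named genes are all members, the most abundant gene of each list and those past 2-fold whose FPKM reached 1 in the libraries compared, and the nearest 5 genes by log2 ratios. KRT14, KITLG, CD3E and ZEB1 are named outside this rule, after their values were seen, as are the genes marked so in the text. Genes of the ETS and cadherin lists and the neighbours of KRT19 were also named without this rule. The 4 genes listed as other simple keratins (KRT20, KRT80, KRT23 and KRT222) had no value, and 1 gene of the surface protein list is not reported here. Promoter and protein sequences were not analysed here. Whether the fold calls exceed the spread between animals or libraries was not tested. Python 3.11.15, numpy 2.4.6, pandas 2.3.3 and matplotlib 3.10.9 were used.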

Additional observations from a re-analysis of the deposited data

How the results depend on the processing

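No paired analysis was possible because there is 1 library at each stage, and no replicate could be left out. At a fold of at least 1.5, the numbers of luminal genes that differed were 6 between E and P, 2 between E and L and 5 between P and L, and at a fold of at least 4 they were 0, 0 and 1, by construction of the threshold. When the locus that holds 30.0%, 46.0% and 29.9% of the FPKM sum of E, P and L was left out and the libraries were rescaled to a common sum, 5 genes differed between E and P (KRT8 and KRT18 besides the 3) and 4 between P and L (KRT18 besides the 3), and the median log2 ratios became 1.13, 0.02 and -0.74 for P over E, L over E and L over P. The medians of protein-coding genes at or above 1 FPKM in the libraries compared then moved to 0.50, 0.11 and -0.37, and relative to these shifts the luminal genes stood as with centred ratios. Centring on the median of protein-coding genes gave 0.64, -0.09 and -0.38. A pseudocount of 1 gave 0.59 and -0.34 for P over E and L over P. Division by CDH1, chosen after seeing the data, gave 2 genes between E and P and medians of 0.41, -0.19 and -0.23. These 2 were KIT, higher in P, and EHF, lower in P, so KRT7 and ELF3 were lost and EHF came in. The exchange of the P and L columns gave 1 gene between E and P and 3 between E and L, medians of -0.10, 0.61 and 0.35, and for P over E -0.66 for KRT7, -1.83 for KIT and -0.55 for ELF3. KIT was then 1.31 for L over E, and KRT7, KIT and ELF3 were 1.69, 3.14 and 1.73 for L over P. A filter at 1 FPKM, a pseudocount of 0.1 and the highest locus alone left these counts and medians as they were. For KRT7, KIT, ELF3 and EHF singly, 96 log2 ratios were recomputed: 33 kept their value to 2 decimals. The sign changed in 11, of which 10 came from the exchange of columns, and 1 from the rescaling, EHF for L over E. Of the 11, 7 were past 2-fold as deposited, all changed by the exchange.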

Other observations

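Other genes of the ETS and cadherin families, which hold EHF, ELF3 and CDH1, were looked at after the values above had been seen. All 21 other ETS genes listed had a value. Between E and P, ELF5 was the 1 gene at least 2-fold lower, and ETV5, SPIB and SPDEF were at least 2-fold higher, with a median log2 ratio of 0.18. Between P and L, 6 of the 21 were at least 2-fold lower in L and 1, ELF5, higher, with a median of -0.34, and between E and L 2 were lower in L, SPI1 and ETV4, the latter listed at 0 there. SPIB, a factor of B cells, had 0.364, 2.82 and 0.403 FPKM in E, P and L, and SPI1, a factor of myeloid and B cells, had 2.67, 3.72 and 0.508. The widely expressed members ELF1, ELF2 and GABPA differed by less than 1.5-fold in each comparison. No other member of the family came near the level of ELF5 and EHF, the next highest being ELK4 with 32.8, 22.0 and 28.4 FPKM. Of 8 other cadherins, 5 had a value, and 3 of these were at least 2-fold higher in P than in E: CDH3 (P-cadherin), whose locus lies 32306 nt from that of CDH1, with 0.726, 1.83 and 0.964 FPKM, CDH4 with 0.379, 1.25 and 0.376, and CDH11, a cadherin of mesenchymal cells, with 7.74, 16.4 and 5.26. CDH1 was higher in each library than any of these 5 cadherins.

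Next to KRT19, at a gap of 6058 nt, an entry with the gene ID 102179235, for which the gene table gave no symbol, had 130 FPKM in E, 238 in P and 26.2 in L. LOC102179515, at a gap of 19264 nt, had 1.89, 48.1 and 0.410 FPKM. Both had the order of KRT7, KIT and ELF3 and not that of KRT19. What these entries encode was not tested.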
